A study of Mus musculus with 47 samples.

Results

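The immediate early genes of the AP-1 and EGR families were followed in RNA of lung, whole blood and aorta of mice that had breathed welding fume. The members are 10 genes chosen by name: Fos, Fosb, Jun, Junb, Egr1, Egr2, Ier2, Atf3, Dusp1 and Nr4a1. Each has 1 entry among the 18138 entries that the Illumina mouse beadchip lists in each of the 3 tissues. The male C57BL/6J mice were 6 weeks of age when exposed. They breathed fume that arises when stainless steel is welded by the gas metal arc process (GMA-SS), or air. Exposure lasted 3 hr per day on 10 d, with the fume at 40 mg/m3. Tissue was taken 4 hr or 28 d after the last exposure, and all mice were killed with carbon dioxide. The groups were GMA-SS and air at 4 hr and GMA-SS and air at 28 d, with 4 arrays each in every tissue except GMA-SS at 4 hr in aorta, which had 3, and with 1 mouse per array (47 arrays). The labels name no transgene or mutant allele. Blood and aorta came from the same mice and lung from others. The tissues were whole, with globin RNA removed from the blood RNA, so that each array holds RNA of many cell types.

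Immediate early genes are switched on within minutes of a stimulus by factors already present in the cell, without new protein synthesis. FOS and JUN proteins pair through leucine zippers to form the AP-1 factor, EGR proteins bind GC-rich sites through zinc fingers, and their targets include cytokine, protease and growth factor genes. Among the members, Fos, Fosb, Jun and Junb encode AP-1 subunits, Egr1 and Egr2 zinc finger factors, Atf3 a stress-induced bZIP factor that can pair with JUN proteins, and Dusp1 a phosphatase that switches MAP kinases off. Nr4a1 encodes an orphan nuclear receptor, and Ier2 a nuclear protein of the early response.

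A gene counted as above background on an array where its detection p-value was under 0.05, and it was tested in a tissue where this held on at least 3 arrays. By this filter 8 of the 10 members were tested in every tissue. Ier2 was above background on 1 of 16 lung arrays and on no blood or aorta array, and Nr4a1 on no array at all, so neither could be compared at this signal strength. Fos, Jun, Junb, Egr1, Egr2 and Dusp1 were above background on every array of all 3 tissues. Fosb and Atf3 were above background on every lung array, on 14 of 15 aorta arrays each, and on 6 and 8 of 16 blood arrays. Values are background-corrected, quantile-normalized log2 signals, normalized within a tissue, and they are compared only within a gene and a tissue.

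Between 8090 and 10872 entries were above background per array. Each of 6 beadchips held 1 tissue at 1 time, with air in positions A to D and GMA-SS in E to H. Exposure and position therefore cannot be told apart, nor can time, age of the mice at harvest, day of harvest and beadchip. Mice of the 28 d groups were older at harvest than those of the 4 hr groups. In lung the mean background was 191 to 210 on the 4 hr beadchip and 124 to 137 on the 28 d beadchip. As a check of the tissue labels, 6 of 6 alveolar type II markers were above background on every lung array, 6 of 6 platelet markers on every blood array, and at least 6 of 7 vascular smooth muscle markers on every aorta array. By these counts the platelet and smooth muscle lists do not tell blood and aorta from lung. In lung 6 of 7 smooth muscle markers were also above background on every array, and 6 of 6 platelet markers on every air array at 4 hr. Some arrays stood apart by markers of other tissues. In aorta, GMA-SS at 28 d replicate 2 had a summed signal of 5 secretory airway markers of 66560, against 220 to 935 on the other 14 aorta arrays, and of 10 neutrophil markers of 8006, against 141 to 681.5. In lung, GMA-SS at 28 d replicate 2 had a summed signal of 6 skeletal muscle markers of 46580, against 613 to 1067 on the other 15 lung arrays. Skeletal muscle markers were also high in the aorta arrays GMA-SS at 4 hr replicate 3, with 8059, and air at 4 hr replicates 3 and 2, with 10170 and 2602, against 164 to 1499 on the other 12. Results at 28 d in aorta and lung are given with and without the replicates 2 named first.

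The stretches before the start sites of 5 members are shown. Each of the 5 passed a test or varied with Fos between mice in the results below. Jun, which passed between air lungs, had a window that is not shown. Egr1, which varied with Fos in aorta, had none. RefSeq (build GRCm38.p6) gave windows for 8 of the 10 members. Each line runs 5′ to 3′ over the 250 bases before the start, with the letters of a motif in capitals. The motifs searched on both strands were the cyclic AMP response element CRE (TGACGTCA), its core TGACG, which lies within the CRE, the AP-1 site TGACTCA, the EGR site GCGNGGGCG and the CArG box that serum response factor binds.
Fos (chr12:85473640-85473889, plus strand): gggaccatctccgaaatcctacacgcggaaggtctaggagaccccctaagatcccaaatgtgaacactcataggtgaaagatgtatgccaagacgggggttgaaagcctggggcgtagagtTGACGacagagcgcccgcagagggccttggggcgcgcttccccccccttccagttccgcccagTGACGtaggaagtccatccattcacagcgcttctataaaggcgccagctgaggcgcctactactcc
Junb (chr8:84978749-84978998, minus strand): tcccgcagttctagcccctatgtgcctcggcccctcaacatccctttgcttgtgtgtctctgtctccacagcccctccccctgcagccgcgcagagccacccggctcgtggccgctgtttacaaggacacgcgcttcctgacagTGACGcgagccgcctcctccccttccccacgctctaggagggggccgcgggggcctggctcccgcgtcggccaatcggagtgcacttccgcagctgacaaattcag
Atf3 (chr1:191183334-191183583, minus strand): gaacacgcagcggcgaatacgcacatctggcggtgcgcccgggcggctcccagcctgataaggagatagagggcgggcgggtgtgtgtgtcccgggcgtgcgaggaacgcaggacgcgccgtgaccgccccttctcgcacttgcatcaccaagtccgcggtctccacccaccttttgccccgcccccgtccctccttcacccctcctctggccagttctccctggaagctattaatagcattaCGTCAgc
Dusp1 (chr17:26508473-26508722, minus strand): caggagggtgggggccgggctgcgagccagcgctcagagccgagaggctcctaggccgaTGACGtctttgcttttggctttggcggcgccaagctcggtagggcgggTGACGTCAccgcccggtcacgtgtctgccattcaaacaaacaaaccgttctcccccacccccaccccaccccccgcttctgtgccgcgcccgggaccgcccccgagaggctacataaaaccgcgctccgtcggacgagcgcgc
Egr2 (chr10:67537619-67537868, plus strand, 1 of 5 windows that RefSeq lists): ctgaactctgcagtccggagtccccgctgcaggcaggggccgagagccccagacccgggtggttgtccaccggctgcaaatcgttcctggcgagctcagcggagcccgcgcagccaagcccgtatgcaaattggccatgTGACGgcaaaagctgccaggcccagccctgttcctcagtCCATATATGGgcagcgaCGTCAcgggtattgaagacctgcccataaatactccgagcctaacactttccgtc
The CRE core was in windows of 7 of the 8 members, every one but Jun, and in 17.8% of all 32841 windows of this length. Counted by gene, as the members are, it was in a window of 5347 of 27018 genes. In Fos its copies began 129 and 66 bases before the start, in Junb 106 and in Atf3, read on the other strand, 7. The whole CRE was in the window of Dusp1, where it began 143 bases before the start, and in 1.55% of all windows. A CArG box was in 4 of the 5 windows of Egr2, some of which overlap and hold the same box, and in 1.47% of all windows. Of the 8 members with a window, Egr2 was the 1 with such a box within the 250 bases searched. Egr1 and Ier2 had no window to search. EGR sites were in the windows of Fosb and Nr4a1 and in 4.7% of all windows. The AP-1 site was in no member's window and in 4.46% of all windows. The window of Jun held none of the motifs searched. These are matches of letters, counted without a test.

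In lung, Junb and Atf3 rose after GMA-SS at both times, and no other member passed the test. For Junb the 4 values were 10.48, 10.63, 10.51 and 10.23 in GMA-SS lungs at 4 hr, against 9.55, 9.97, 9.81 and 9.99 in air lungs. At 28 d they were 11.10, 10.60, 11.09 and 10.68 in GMA-SS lungs, against 10.33, 10.27, 10.36 and 10.09 in air lungs. Every GMA-SS lung lay above every air lung of its time. The log2 difference was 0.63 (SE 0.13, adjusted p = 0.001835, limma) at 4 hr, which is 1.55-fold, and 0.61 (SE 0.13, adjusted p = 0.003373) at 28 d, which is 1.52-fold.

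Atf3, which many stresses induce, rose as well. It had 8.09, 8.56, 7.97 and 8.09 in GMA-SS lungs at 4 hr, against 6.99, 7.65, 7.19 and 7.08 in air lungs. At 28 d it had 9.47, 9.29, 9.10 and 8.56 in GMA-SS lungs, against 8.13, 8.44, 8.41 and 8.13 in air lungs. The groups did not overlap at either time, and the lowest GMA-SS lung at 28 d was replicate 4. The log2 difference was 0.95 (SE 0.18, adjusted p = 0.001435, limma) at 4 hr, a 1.93-fold rise, and 0.83 (SE 0.18, adjusted p = 0.005308) at 28 d, a 1.78-fold rise. On the authors' normalized scale it was 0.23 (adjusted p = 0.02446) and 0.35 (adjusted p = 0.002786), and without background correction it was 0.56 (adjusted p = 0.004675) at 4 hr. These 2 of 8 members stand beside 19.5% of 11133 genes called in lung at 4 hr (1066 higher, 1105 lower) and 16.3% at 28 d (853 higher, 965 lower).

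The GMA-SS lungs also differed in cell markers. The summed linear signal of 10 macrophage and monocyte markers, 9 of them above background on every array, was 106600 to 108900 in GMA-SS lungs and 88600 to 97890 in air lungs at 4 hr. At 28 d it was 105300 to 108100 in GMA-SS lungs and 89680 to 98950 in air lungs. Ccr2 was above background in none. That of 7 T cell markers was 3530 to 6430 in GMA-SS lungs and 2330 to 2709 in air lungs at 4 hr, and 3330 to 6269 in GMA-SS lungs and 2604 to 2909 in air lungs at 28 d. Cd4 and Cd8a were above background in none. That of 10 neutrophil markers overlapped between the groups, with 8581 to 10670 in GMA-SS and 8233 to 11660 in air lungs at 4 hr and 11790 to 21480 in GMA-SS and 10310 to 14540 in air lungs at 28 d. Mmp8, Cxcr2 and Ngp were above background in none, and Camp only in the GMA-SS group at 28 d. Of the other 12 marker lists, that of 6 alveolar type II markers was higher without overlap at both times, with 160900 to 182900 in GMA-SS and 149000 to 157200 in air lungs at 4 hr and 145100 to 152800 in GMA-SS and 133400 to 142900 in air lungs at 28 d. That of 5 secretory airway markers was lower at both, with 158200 to 169900 in GMA-SS and 179700 to 196600 in air lungs at 4 hr and 155600 to 177300 in GMA-SS and 181100 to 184800 in air lungs at 28 d. At 4 hr alone, 7 vascular smooth muscle (18740 to 23060 in GMA-SS and 27140 to 28340 in air lungs), 7 adipocyte (16230 to 23620 in GMA-SS and 29530 to 44180 in air lungs), 5 erythroid (84050 to 89070 in GMA-SS and 91600 to 95090 in air lungs) and 6 platelet markers (3352 to 3990 in GMA-SS and 4441 to 5135 in air lungs) were lower without overlap. Cnn1 of the smooth muscle list and Plin1 and Fabp4 of the adipocyte list were above background in none at that time. The part of the cells these lists mark in the rise of Junb and Atf3 was not tested. In whole tissue, more cells of a type and more RNA per cell cannot be told apart.

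None of the other AP-1 subunit genes passed the test in lung. Jun had 11.70, 11.36, 11.65 and 11.51 in GMA-SS lungs at 4 hr, against 11.85, 11.86, 11.71 and 11.88 in air lungs. All 4 GMA-SS lungs lay below all 4 air lungs, the nearest by little, and the log2 difference of -0.27 (SE 0.15, adjusted p = 0.247, limma) did not pass. At 28 d Jun overlapped between the groups, with 10.68 to 11.34 in GMA-SS and 11.00 to 11.73 in air lungs (log2 difference -0.23, adjusted p = 0.3649). Fosb averaged 7.47 ± 0.33 in GMA-SS and 7.92 ± 0.34 in air lungs at 4 hr, and 7.93 ± 0.68 in GMA-SS and 8.46 ± 0.41 in air lungs at 28 d (SD, n = 4). Its log2 differences were -0.45 and -0.53, with adjusted p = 0.2914 and 0.2249. For Fos itself GMA-SS lungs had 10.95, 10.95, 11.53 and 11.11 at 4 hr, against 10.82, 11.14, 10.85 and 10.75 in air lungs. At 28 d Fos had 11.67, 11.48, 11.16 and 11.05 in GMA-SS lungs, against 11.33, 11.44, 10.80 and 10.75 in air lungs. The groups overlapped at both times. The log2 differences were 0.25 (95% interval -0.11 to 0.61) and 0.26 (-0.10 to 0.62).

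Neither zinc finger gene passed the test, and Egr2 lay near the threshold. Egr2 had 9.60, 9.87, 9.64 and 9.49 in GMA-SS lungs at 4 hr, against 9.22, 9.61, 9.17 and 9.24 in air lungs. Only air replicate 2 reached into the GMA-SS range. At 28 d it had 9.97, 9.60, 9.80 and 9.50 in GMA-SS lungs and 9.46, 9.16, 9.52 and 9.45 in air lungs. The log2 differences of Egr2 were 0.34 (SE 0.12, adjusted p = 0.06074, limma) at 4 hr and 0.32 (SE 0.12, adjusted p = 0.08456) at 28 d. It passed at 4 hr in a fit of the 2 groups alone (adjusted p = 0.04635), without GMA-SS replicate 4 (0.04887) or without air replicate 2 (0.01808), and over all alternatives its adjusted p ran from 0.01808 to 0.1945. At 28 d that range was 0.03435 to 0.2583, the lowest without GMA-SS replicate 4. Egr1 averaged 12.53 ± 0.20 in GMA-SS and 12.22 ± 0.34 in air lungs at 4 hr, and 12.84 ± 0.30 in GMA-SS and 12.72 ± 0.43 in air lungs at 28 d (SD, n = 4). Its adjusted p-values were 0.3122 and 0.7339. Dusp1, the MAP kinase phosphatase, averaged 13.96 ± 0.16 in GMA-SS and 14.18 ± 0.29 in air lungs at 4 hr, and 13.94 ± 0.22 in GMA-SS and 14.09 ± 0.20 in air lungs at 28 d (SD, n = 4). Neither of its log2 differences, -0.22 (95% interval -0.51 to 0.08) and -0.16 (-0.45 to 0.13), passed.

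**Figure D1:**
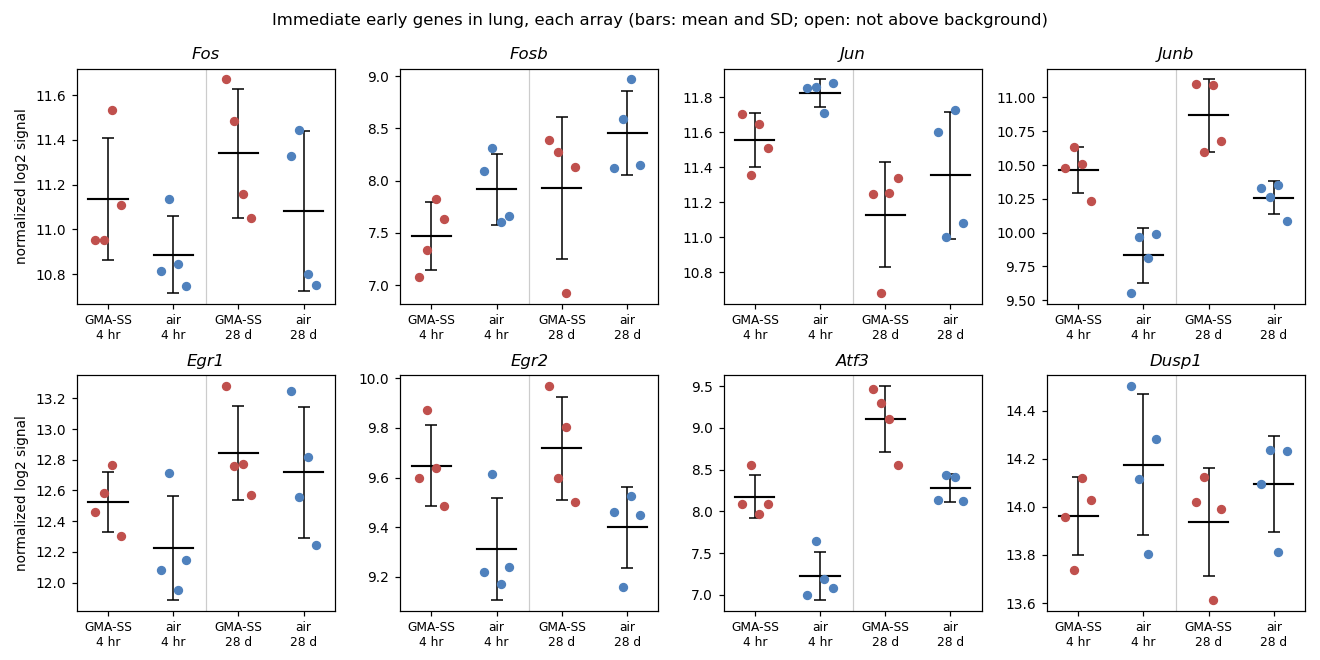
Normalized log2 signal (y axis) of the 8 tested members on each lung array, by group (x axis, GMA-SS red, air blue). Bars are mean and SD, n = 4. Junb and Atf3 show GMA-SS lungs above all air lungs of the same time, while Fos, Fosb, Egr1 and Dusp1 overlap.

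The effect in lung did not differ detectably between the times. The difference between the 28 d and the 4 hr effect was -0.02 for Junb (95% interval -0.40 to 0.35) and -0.12 for Atf3 (-0.67 to 0.42) on the log2 scale. None of the 8 members passed this test, by which 0.566% of the lung genes were called. Without GMA-SS at 28 d replicate 2, whose skeletal muscle markers were high, Junb differed by 0.70 (adjusted p = 0.001695, limma) and Atf3 by 0.77 (adjusted p = 0.01615) at 28 d. Jun, which was lowest on that array, then differed by -0.08 (95% interval -0.37 to 0.22).

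Around the members, the list of genes that AP-1 or EGR factors are known to drive held most of the list calls with GMA-SS in lung. Of its 22 measured genes 12 rose and 3 fell at 4 hr, with a median log2 difference of 0.67 beside -0.04 over all genes. At 28 d 14 rose and 3 fell, with a median of 0.88 beside -0.04. Without the lung array with high skeletal muscle markers the counts at 28 d were 13 and 1. Many of these genes are also driven by NF-κB or are marker genes of inflammatory cells, and the list was compiled with earlier results of these data known. The counts are therefore no test of AP-1 or EGR activity. Hmox1, which encodes heme oxygenase 1, rose by 1.02 (SE 0.10, adjusted p = 2.194e-06) at 4 hr and 0.91 (SE 0.10, adjusted p = 1.125e-05) at 28 d. Spp1, which encodes osteopontin, rose by 0.91 (adjusted p = 3.211e-06) and 1.61 (adjusted p = 4.689e-09), and it was the 1 gene of these pathway lists whose effect differed between the times (0.70 more at 28 d, SE 0.13, adjusted p = 0.02073). Ccl3, a macrophage chemokine gene, rose by 2.87 (adjusted p = 2.602e-05) and 3.43 (adjusted p = 6.747e-06), from air lungs in which it was above background on 1 of 4 arrays at 4 hr and 2 of 4 at 28 d.

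The counts of the neighboring lists in lung stand beside the 19.5% and 16.3% of all genes called with GMA-SS. Of 9 measured further AP-1 family and partner genes none passed at either time. Of 29 further immediate early genes 4 rose and 1 fell at 4 hr, and 3 rose and 1 fell at 28 d. Bhlhe40, a clock repressor, rose by 0.63 (adjusted p = 0.0001892) and 0.59 (adjusted p = 0.0004883), while Rgs2, a G protein regulator, fell by 0.50 (adjusted p = 0.003711) and 0.47 (adjusted p = 0.007023). Phlda1 rose by 0.45 at 4 hr (adjusted p = 0.005097) and Plk3, a stress kinase gene, by 0.36 at 28 d (adjusted p = 0.005447). Of 14 feedback inhibitor genes 3 rose and 1 fell at each time. Among them were Socs3, the cytokine signaling suppressor (0.74, adjusted p = 0.004513, and 0.82, adjusted p = 0.003126), and the phosphatase gene Dusp2 (0.94, adjusted p = 0.01181, and 0.99, adjusted p = 0.01113). At 4 hr Tob1, an antiproliferative gene, fell by 0.28 (adjusted p = 0.01075), and at 28 d the NF-κB inhibitor gene Tnfaip3 rose by 0.68 (adjusted p = 0.004652). Of 19 upstream kinase and factor genes 2 rose and 1 fell at 4 hr and 1 fell at 28 d. At 4 hr the kinase genes Map2k1 and Rps6ka3 rose by 0.48 and 0.29 (adjusted p = 0.01408 and 0.02073), while Srf, which encodes serum response factor, fell by 0.23 (adjusted p = 0.02944). At 28 d Mapk8, which encodes JNK1, fell by 0.28 (adjusted p = 0.0283). Of 10 heat shock genes, Hspa5, an endoplasmic reticulum chaperone gene, rose by 0.64 (adjusted p = 0.007024) and Hspb1 fell by 0.37 (adjusted p = 0.01208) at 4 hr, and none passed at 28 d. Without the lung array with high skeletal muscle markers the counts at 28 d were 2 higher and 1 lower of the further AP-1 genes, 3 and 2 of the further immediate early genes and 4 and 1 of the feedback inhibitor genes.

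The air lungs themselves, the same arrays that stand against GMA-SS above, differed between 28 d and 4 hr. Air lungs at 28 d had more Atf3 and Junb and less Jun than air lungs at 4 hr. From the values above, all 4 air lungs at 28 d lay above all 4 at 4 hr for Atf3 (log2 difference 1.05, SE 0.18, adjusted p = 0.000585, limma, 2.07-fold) and for Junb (0.43, SE 0.13, adjusted p = 0.01912). Jun had 11.60, 11.00, 11.73 and 11.08 in air lungs at 28 d, against 11.85, 11.86, 11.71 and 11.88 at 4 hr. It was lower by 0.47 on the log2 scale (SE 0.15, adjusted p = 0.03464), with replicates 2 and 4 lowest at 28 d. Egr1 was higher by 0.49 but missed the threshold (adjusted p = 0.07697), which it passed without air at 4 hr replicate 2 (0.02332) or air at 28 d replicate 4 (0.02612). In this comparison 25.2% of the lung genes were called (1433 higher, 1377 lower at 28 d). The call of Jun was lost with scaling to the 75th percentile (adjusted p = 0.05675) and without air at 4 hr replicate 1, 2 or 4 or air at 28 d replicate 2 or 4 (up to 0.1201), and that of Junb without air at 4 hr replicate 1 (0.07201) or air at 28 d replicate 3 (0.05009). For Atf3 the size depended on the scale, with 0.63 (adjusted p = 0.001799) without background correction and 0.26 (adjusted p = 0.01034) on the authors' normalized scale, and the background of these beadchips differed as given above. The part of the beadchip, or of the age of the mice at harvest, in these steps was not tested.

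Among the lists in air lungs, 6 of 10 heat shock genes were higher and 1 lower at 28 d (median 0.30 beside 0.01 over all genes). Hspa1a, the inducible HSP70 gene, was 4.51-fold higher (log2 difference 2.17, SE 0.17, adjusted p = 2.513e-07) and its cochaperone gene Dnajb1 1.90-fold higher (0.92, adjusted p = 1.534e-05), while Hspb1 fell by 0.71 (adjusted p = 7.801e-05). Of 29 further immediate early genes 3 were higher and 11 lower. Phlda1 was higher by 0.89 (adjusted p = 1.818e-05), and Csrnp1 and Gadd45b fell by 1.21 and 0.45 (adjusted p = 4.984e-05 and 6.623e-05). Of the feedback inhibitor genes 3 of 14 were higher and 2 lower, among them Dusp10, higher by 0.91 (adjusted p = 4.522e-06), Zfp36l1, higher by 0.52 (adjusted p = 3.499e-05), and Nfkbia, which fell by 0.75 (adjusted p = 0.0004516). Of 19 upstream genes 6 were higher and 2 lower. Of 22 target genes 6 were higher, led by Mmp9, a matrix protease gene (0.88, adjusted p = 0.0001356). Of 9 further AP-1 genes 1 was higher and 1 lower. All of these list counts stand beside the 25.2% of 11133 lung genes called between the air lungs.

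In blood, no member passed the test of GMA-SS against air, while Fos, Atf3 and Dusp1 were higher in air blood at 28 d than at 4 hr. Fos had 8.54, 7.90, 8.36 and 7.68 in GMA-SS blood at 4 hr, against 7.95, 8.67, 7.82 and 8.27 in air blood. At 28 d Fos had 9.81, 9.93, 9.64 and 9.26 in GMA-SS blood, against 9.79, 10.31, 9.48 and 9.53 in air blood. GMA-SS and air overlapped at each time, while all 8 values at 28 d lay above all 8 at 4 hr. The GMA-SS effect on Fos was -0.06 (95% interval -0.52 to 0.40) at 4 hr and -0.11 (-0.57 to 0.35) at 28 d on the log2 scale. Air blood at 28 d was 1.60 above air blood at 4 hr (SE 0.22, adjusted p = 0.000358, limma), which is 3.03-fold and rank 21 by p among the 9259 genes tested. Over the alternatives this step ran between 1.07 and 1.76.

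Atf3 took the same course nearer the background. It was above background on none of the 8 blood arrays at 4 hr and on all 8 at 28 d. Its values at 28 d were 6.07, 5.89, 5.85 and 5.44 in GMA-SS blood and 5.67, 6.19, 5.59 and 5.64 in air blood. At 4 hr they were 4.68 to 4.99 in GMA-SS blood and 4.73 to 5.08 in air blood. Air blood at 28 d was at least 1.48-fold higher than air blood at 4 hr, taking the lowest signal above background as the level at 4 hr on this scale (adjusted p = 0.001408 in the fit, limma). Atf3 entered the test in blood through the 28 d arrays alone, where it was higher. Its p-value is therefore no independent support for the step. The fitted log2 difference of Atf3 was 0.84, and it was 0.42 (adjusted p = 0.001753) without background correction and 0.14 (adjusted p = 0.001685) on the authors' normalized scale, both smaller than after background correction and quantile normalization. Dusp1 had 11.37, 11.62, 11.86 and 11.57 in air blood at 28 d, against 11.44, 11.13, 10.72 and 11.06 in air blood at 4 hr. The groups overlapped by air replicate 1 of each time, and the log2 difference was 0.52 (SE 0.17, adjusted p = 0.04833). This call was lost with scaling to the 75th percentile (adjusted p = 0.0827), without the detection filter (0.0645) and without replicate 2, 3 or 4 of air at either time (up to 0.1545). These 3 of 8 members, of which Atf3 met the filter by its 28 d arrays alone, stand beside 16.9% of the blood genes called (827 higher, 735 lower at 28 d).

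The other members did not pass between the times in blood. Junb averaged 8.64 ± 0.26 in air blood at 28 d and 8.40 ± 0.15 in air blood at 4 hr (SD, n = 4 each), a log2 difference of 0.23 (95% interval -0.05 to 0.52). Egr2 averaged 6.11 ± 0.29 at 28 d and 5.88 ± 0.17 at 4 hr, a difference of 0.24 (-0.10 to 0.58). The differences of Egr1 and Jun were 0.06 (-0.22 to 0.33) and 0.12 (-0.19 to 0.42). Of the 4 air arrays at each time, 2 had Fosb above background. For GMA-SS against air the adjusted p-values of the 8 members were 0.9978 or above at 4 hr and 0.7756 or above at 28 d. By this test 0.0108% of the blood genes were called at 4 hr, which is 1 gene, and 0% at 28 d, where 718 genes had an unadjusted p under 0.05. For the difference between the effects it was 0%, with 331 genes at an unadjusted p under 0.05. Among the members, the largest such difference was that of Dusp1 (0.44, 95% interval -0.08 to 0.95, adjusted p = 0.9998).

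Cell markers moved with the times in blood as well, and 4 of 15 lists were lower at 28 d without overlap. The summed signal of 10 neutrophil markers was 26010 to 44680 in air blood at 28 d and 19640 to 30620 at 4 hr, with Mmp8, Cxcr2, Ngp and Ltf above background in none at 28 d. That of 7 T cell markers was 10640 to 12600 in air blood at 28 d and 15910 to 18600 at 4 hr, with Cd8a above background in none. That of 6 platelet markers was 84340 to 96300 at 28 d and 96240 to 111400 at 4 hr. That of 6 endothelial markers was 9488 to 11570 in air blood at 28 d and 15620 to 18550 at 4 hr, with Cdh5, Kdr and Tie1 above background in none. That of 7 vascular smooth muscle markers was 384.9 to 462.3 at 28 d and 557.7 to 724 at 4 hr, with Myh11, Cnn1, Tagln and Des above background in none. That of 6 ciliated airway markers was 2582 to 2851 at 28 d and 2870 to 3251 at 4 hr, with Tekt1, Dnah5 and Ccdc39 above background in none. The part of the cells these lists mark in the step of Fos and Atf3 was not tested. Among the lists, 6 of 10 heat shock genes were higher in air blood at 28 d and none lower (median 0.53 beside 0.01 over all genes). Dnajb1 was 2.32-fold higher (1.21, SE 0.11, adjusted p = 8.275e-06), and Hspa1a was above background on all 4 air arrays at 28 d and 1 of 4 at 4 hr (log2 difference 1.73, adjusted p = 0.0002724). Of 24 further immediate early genes 6 were higher and 3 lower, led by the survival gene Mcl1 (0.71, adjusted p = 0.0003772), Klf6 (0.46, adjusted p = 0.001641) and Rgs2 (0.67, adjusted p = 0.001873). Of 7 further AP-1 genes Jund fell by 0.63 (adjusted p = 0.02296). Of 14 target genes 3 were higher and 2 lower, among them Il1b, higher by 1.42 (adjusted p = 0.001955), and Tgfb1, which fell by 0.73 (adjusted p = 0.01093). Of 14 feedback inhibitor genes 3 were higher and 3 lower, and of 21 upstream kinase and factor genes 4 were higher and 1 lower. All of these list counts stand beside the 16.9% of 9259 blood genes called between the air bloods. With GMA-SS no gene of these lists passed in blood at either time.

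**Figure D2:**
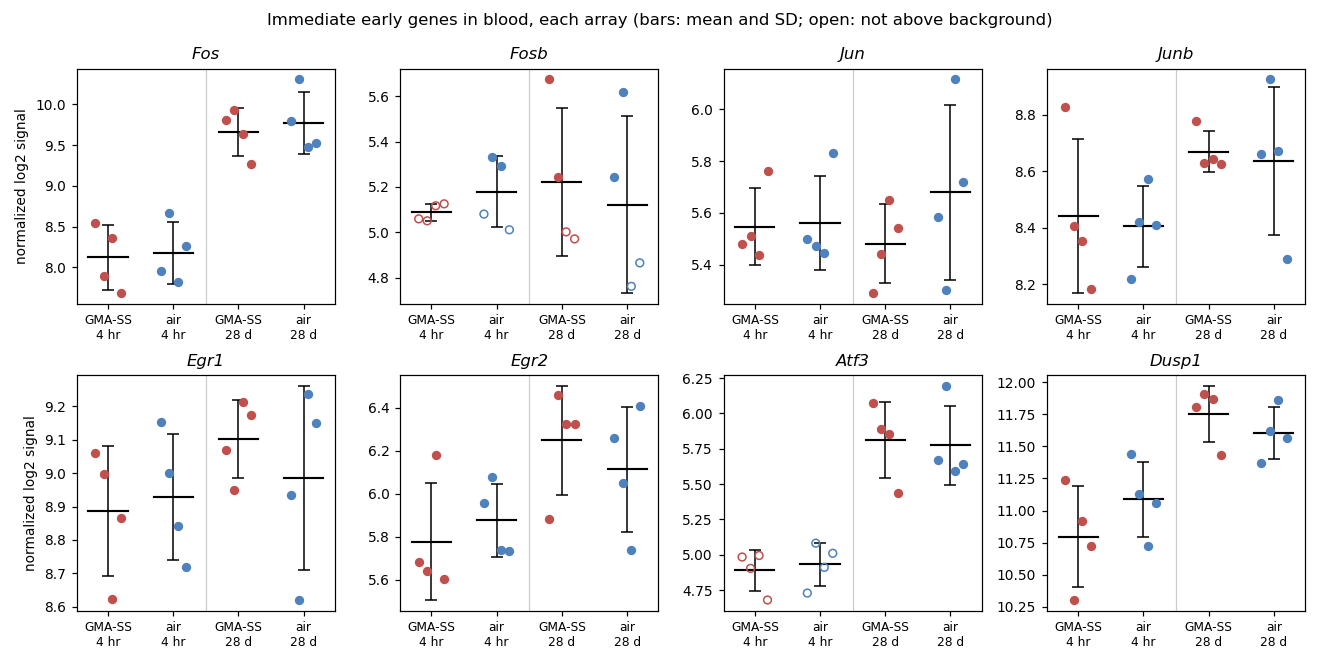
Normalized log2 signal (y axis) of the 8 tested members on each blood array, by group (x axis, GMA-SS red, air blue). Bars are mean and SD, n = 4, and open points were not above background. Fos and Atf3 are higher on all 8 arrays at 28 d than on all 8 at 4 hr, with GMA-SS and air side by side.

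In aorta no member passed in any comparison, and the members spread widely between mice of 1 group. Fos had 6.81, 6.48 and 6.73 in GMA-SS aortas at 4 hr, against 6.99, 6.92, 6.18 and 6.48 in air aortas. At 28 d Fos had 7.28, 8.39, 6.35 and 6.44 in GMA-SS aortas, against 7.57, 7.25, 7.08 and 6.50 in air aortas. The GMA-SS aortas at 28 d reached from below to above all air aortas of that time. The highest was replicate 2, the array with high airway and neutrophil markers, which had the highest value of its group for 8 of 8 members. The log2 difference of Fos was 0.03 (95% interval -0.81 to 0.87) at 4 hr and 0.02 (-0.76 to 0.80) at 28 d, and without replicate 2 it was -0.41 (-0.98 to 0.17) at 28 d. These intervals leave room for changes of Fos in either direction.

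The other members overlapped between GMA-SS and air aortas as well. Egr1 had 10.63, 10.91, 9.75 and 9.97 in GMA-SS aortas at 28 d, against 11.07, 10.49, 9.89 and 9.81 in air aortas. Dusp1 had 11.49, 11.64, 10.68 and 10.78 in GMA-SS aortas at 28 d, against 11.53, 11.44, 10.88 and 11.13 in air aortas. In both exposure groups, replicates 1 and 2 were high and 3 and 4 low, for both genes. Atf3 had 6.31, 7.71, 5.77 and 5.67 in GMA-SS aortas at 28 d and 5.48, 6.48, 6.35 and 6.01 in air aortas, and its log2 difference of 0.28 turned to -0.17 without replicate 2 (adjusted p = 0.8954 and 0.9102). At 4 hr the 3 GMA-SS aortas gave Egr2 of 5.69, 5.73 and 5.45, against 5.36, 5.56, 5.37 and 5.20 in air aortas (log2 difference 0.25, 95% interval -0.23 to 0.74). Over all genes of the aorta 0% were called at 4 hr and 0% at 28 d, with 382 and 673 genes at an unadjusted p under 0.05, and 0% for the difference between the effects, with 386 such genes. Without replicate 2 the largest member difference at 28 d was that of Fosb (-0.45, 95% interval -0.94 to 0.04, adjusted p = 0.5634).

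Between air aortas at 28 d and at 4 hr 12.4% of 9850 genes were called (578 higher, 646 lower at 28 d) and none of the members. Fos was 0.46 higher (95% interval -0.33 to 1.24), Jun 0.26 higher (-0.13 to 0.65) and Fosb 0.40 lower (-1.15 to 0.35) on the log2 scale. Genes of the lists around them did pass. Of 10 heat shock genes 5 were higher at 28 d and none lower (median 0.44 beside -0.0016 over all genes), among them Hspa5 (0.74, adjusted p = 0.002967) and Hsph1 (0.73, adjusted p = 0.00309). Hsp90aa1 was above background on 2 of 4 air aortas at 28 d and 3 of 4 at 4 hr and was 0.79 higher (adjusted p = 0.009508). Of 29 further immediate early genes 3 were higher and 7 lower. The stress gene Gadd45g fell by 1.36 (adjusted p = 0.0002661) and the clock gene Per1 by 1.79 (adjusted p = 0.0005198), while Rgs2 was higher by 0.62 (adjusted p = 0.005777). Of 13 feedback inhibitor genes Nfkbia fell by 1.19 (adjusted p = 5.736e-05) and Tob1 by 1.01 (adjusted p = 0.004884), and Zfp36l1 was higher by 0.64 (adjusted p = 0.001849). Of 19 upstream kinase and factor genes 2 were higher and 1 lower, of 15 target genes 3 were higher, and of 6 further AP-1 genes 1 was lower. With GMA-SS no gene of these lists passed in aorta at either time.

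**Figure D3:**
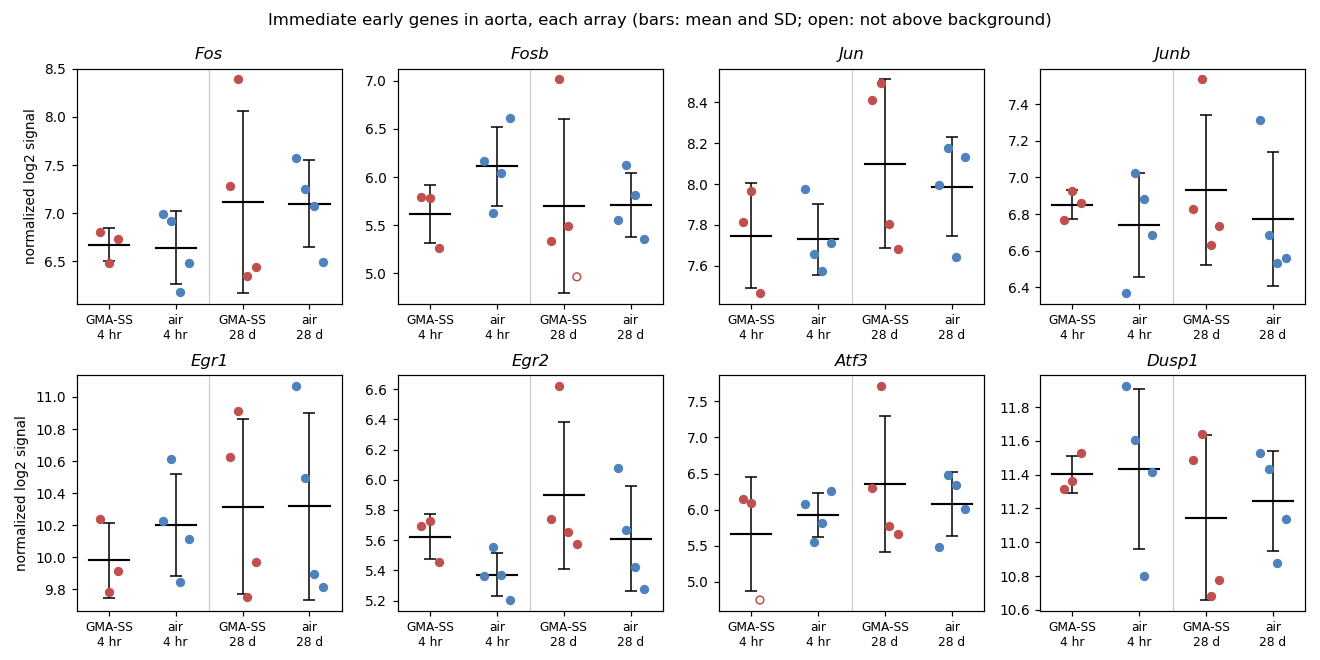
Normalized log2 signal (y axis) of the 8 tested members on each aorta array, by group (x axis, GMA-SS red, air blue). Bars are mean and SD, n = 4 and n = 3 for GMA-SS at 4 hr, and open points were not above background. Replicate 2 of GMA-SS at 28 d is the highest of its group in every panel.

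**Figure D4:**
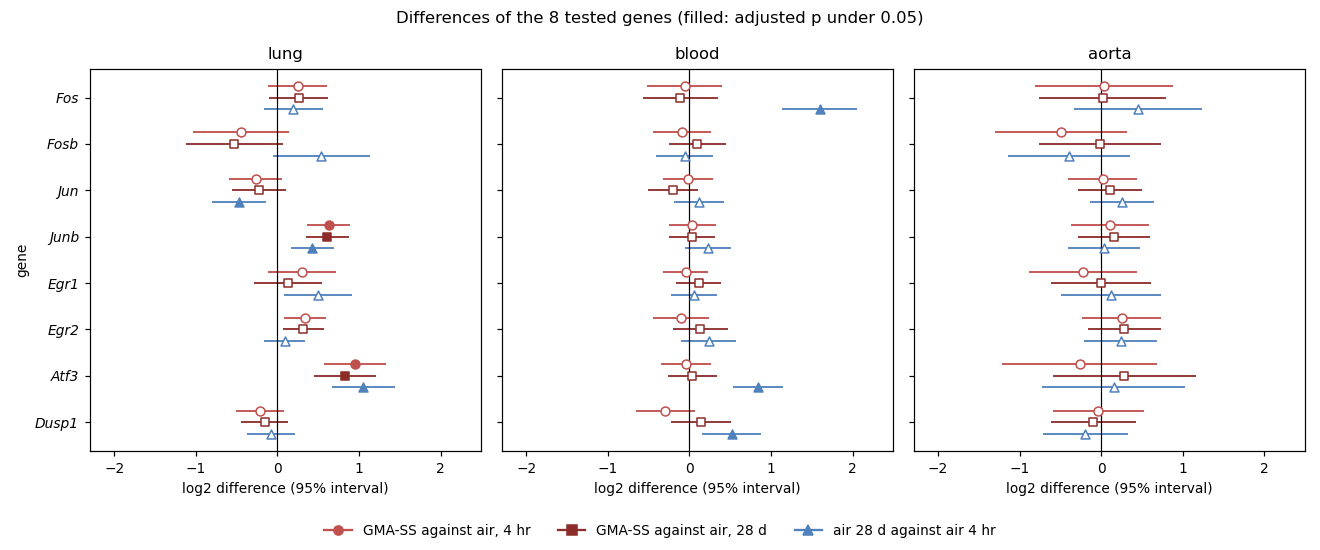
Log2 difference (x axis, with 95% interval) of the 8 tested members (y axis) in lung, blood and aorta, for GMA-SS against air at 4 hr and at 28 d and for air at 28 d against air at 4 hr. Filled symbols passed an adjusted p of 0.05: Junb and Atf3 with GMA-SS in lung, Atf3, Junb and Jun between the air lungs, and Fos, Atf3 and Dusp1 between the air bloods.

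The spread between mice was shared by some members. Deviations from the group mean were correlated with those of Fos, for 7 members in each tissue, with two-sided permutation tests within groups and p-values adjusted over the 7. Genes outside the members were not correlated with Fos. Whether the members vary with Fos more often than other genes of a tissue was therefore not tested. In aorta Egr1 went with Fos (r = 0.854, rho = 0.907, permutation p = 0.00023 and 0.00018, adjusted p = 0.00161 for r, 15 arrays), as did Dusp1 (r = 0.811, rho = 0.90, permutation p = 0.0021 and 0.00063, adjusted p = 0.00672) and Egr2 (r = 0.844, rho = 0.739, permutation p = 0.00288 and 0.00474, adjusted p = 0.00672). Within the 4 hr and 28 d beadchips r was 0.815 and 0.863 for Egr1, 0.881 and 0.85 for Dusp1, but 0.248 and 0.919 for Egr2. Without the 2 arrays farthest from the median of Fos, r was 0.836 for Egr1, 0.767 for Dusp1 and 0.694 for Egr2. Without GMA-SS at 28 d replicate 2, r was 0.877 for Egr1 and 0.813 for Dusp1 (adjusted p = 0.00105 and 0.02408), while Egr2 no longer passed (r = 0.630, permutation p = 0.03484, adjusted p = 0.08129). Junb, Fosb, Jun and Atf3 did not pass (r = 0.545 to 0.648), and without that array Fosb and Atf3 had r of 0.0331 and 0.017.

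In blood Atf3 went with Fos (r = 0.832, rho = 0.906, permutation p = 0.00028 and 0.00021, adjusted p = 0.00196 for r, 16 arrays). Its r was 0.827 within the 4 hr beadchip, where no Atf3 value was above background, and 0.925 within the 28 d beadchip, and 0.775 without the 2 arrays farthest from the median of Fos. With scaling to the 75th percentile r was 0.747 (permutation, adjusted p = 0.03115), and rho was 0.694 and did not pass (permutation, adjusted p = 0.06776). The r of Atf3 was 0.861 without background correction and 0.879 on the authors' normalized scale. None of the other 6 members passed, and Jun and Egr1 had negative r (-0.538 and -0.451, adjusted p = 0.1066 and 0.1818). In lung none of 7 passed, and Egr1 came nearest (r = 0.624, rho = 0.434, permutation p = 0.0285 and 0.1544, adjusted p = 0.1995 for r). Arrays of 1 group share a beadchip but differ in mouse and in position, and the part of each in the shared spread was not tested.

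**Figure D5:**
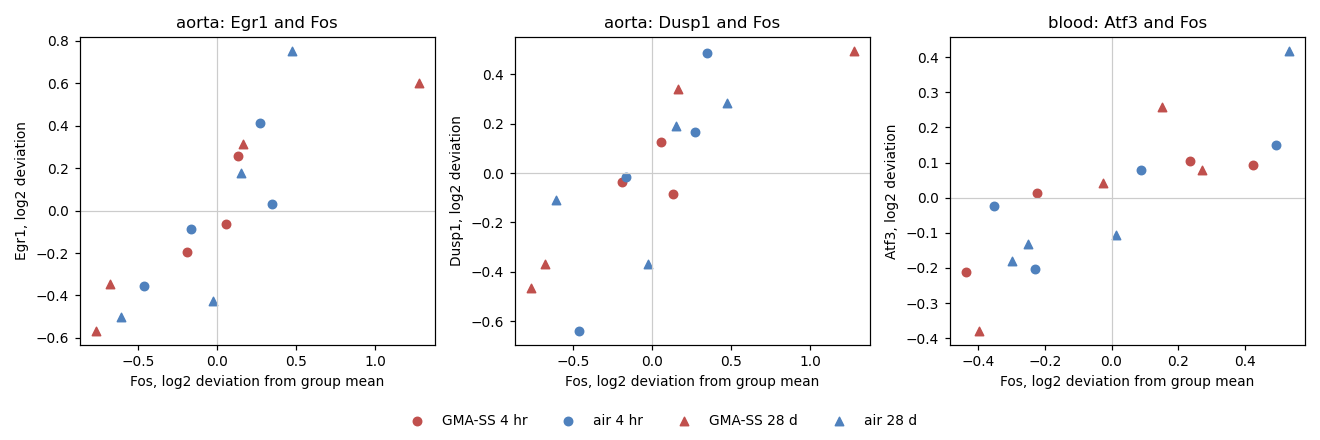
Deviation of Egr1 and Dusp1 in aorta and of Atf3 in blood from the group mean (y axes, log2) against that of Fos on the same array (x axes, log2). Circles are 4 hr and triangles 28 d, red GMA-SS and blue air, and in each panel the points rise with Fos. The point of aorta farthest to the right is GMA-SS at 28 d replicate 2.

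Blood and aorta came from the same mice, 15 of which had arrays of both tissues. The deviations of Fos in blood and in aorta had r = 0.539 and rho = 0.621 (permutation p = 0.04143 and 0.02586), which did not pass after adjustment over the 8 members tested (adjusted p = 0.2597 for r). Without the 2 arrays farthest from the median r was 0.589, and without GMA-SS at 28 d replicate 2 it was 0.530 (adjusted p = 0.3526). Within the 4 hr and 28 d beadchips r was 0.557 and 0.596. None of the 8 members passed, and r ran from -0.502 for Jun to 0.539 for Fos.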

How the data were processed

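RNA of lung, whole blood and aorta was read on 47 Illumina mouse beadchip arrays. The authors deposited for each array the average signal intensity of 18138 entries, not normalized, with a detection p-value, and also their own normalized log2 values. The arrays were scanned on a BeadArray Reader and the intensity of like beads was averaged in BeadStudio. Gene symbols were updated through RefSeq by Entrez number (16590 entries) or accession (883), and 665 kept the deposited symbol. All 10 members were found, each as 1 entry. Intensities were background-corrected by the normexp model, with the mean and SD of the negative controls inferred from the steps of the detection p-values, and an offset of 16 was added before log2 and quantile normalization within each tissue. An entry was tested where its detection p-value was under 0.05 on at least 3 arrays, and the entry with the highest mean stood for a gene, which gave 11133 genes in lung, 9259 in blood and 9850 in aorta. Signal strength over background, with 3 or 4 arrays per group, limits the precision.

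Groups were taken from the labels, each array being 1 mouse. Per tissue, a model of group means was fitted with limma 3.58.1 in R 4.3.3 (eBayes with trend), and p-values were adjusted by Benjamini-Hochberg over all genes tested. A call is an adjusted p under 0.05. Fold changes against a group not above background on any of its arrays were computed against the lowest signal above background. Deviations from group means were correlated by permutation within groups (100000 resamples, numpy 2.4.6). The fit and the correlation were tested on simulated data. As alternatives, the authors' normalized values were used, the background was left uncorrected, arrays were scaled to their 75th percentile, the detection filter was dropped or set at 0.01, and the fit was made with the compared groups alone, array weights, a replicate block, or each array in turn left out. Leaving out the arrays with markers of other tissues from the lists and the aorta correlations was chosen after seeing the data. The members and lists were chosen with earlier results of these data known. Genes of a list are named as the up to 3 called genes with the lowest p. The labels give mouse numbers. The replicate numbers follow the position on the beadchip and do not pair mice across groups.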

Additional observations from a re-analysis of the deposited data

Results flagged for a closer look

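In 8 of 88 sets of 4 arrays, 1 array lay far from the other 3 for a member, where chance alone gives about 1 set in 20 for normal values. The members share the same arrays, so the sets are not independent and their count was not tested against chance. In lung, Jun was 11.71 on air at 4 hr replicate 3, with 11.85 next, and 10.68 on GMA-SS at 28 d replicate 2, with 11.25 next. Egr2 was 9.61 in lung on air at 4 hr replicate 2, with 9.24 next, and without that array Egr2 passed the test of GMA-SS against air at 4 hr (adjusted p = 0.01808). In blood, Egr2 was 6.18 on GMA-SS at 4 hr replicate 3, with 5.68 next, Junb was 8.78 on GMA-SS at 28 d replicate 1, with 8.64 next, and Jun was 5.83 on air at 4 hr replicate 4, with 5.50 next. Atf3 was 6.19 in blood on air at 28 d replicate 2, with 5.67 next. Egr2 was 6.62 in aorta on GMA-SS at 28 d replicate 2, with 5.74 next, on the array whose airway and neutrophil markers were high.

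Ier2, which was in no comparison, was above background on 1 array, lung GMA-SS at 28 d replicate 2, with a log2 signal of 6.66. That array also had high skeletal muscle markers, whose part in this value was not tested.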

How the results depend on the processing

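In the fit of the groups at 4 hr alone, 4 members passed with GMA-SS in lung in place of 2, with Jun (adjusted p = 0.02415) and Egr2 (0.04635) beside Junb and Atf3. With array weights 4 passed at 28 d in place of 2, with Fosb (0.04946) and Egr2 (0.04747) added. With 1 array left out, 2 to 3 members passed in lung at 4 hr and 2 to 3 at 28 d, 1 to 3 between air lungs and 2 to 3 between air bloods, against 0 in the other comparisons. The count of 1 came without air at 4 hr replicate 1, where Atf3 remained. For members that varied with Fos in aorta the count was 2 without GMA-SS at 28 d replicate 2, in place of 3. With the replicate number as a block the counts were 2, 2 and 3 in lung and 3 between air bloods, and 0 elsewhere, so that the block changed no count, although the numbers do not pair mice. Of 160 values of called members under the alternatives, 144 stayed past the threshold, 16 did not and 0 changed sign, and the 16 belong to Jun and Junb between air lungs and Dusp1 between air bloods. Junb and Atf3 with GMA-SS in lung passed under all 16 alternatives at both times, as did Fos and Atf3 between air bloods. The log2 difference of Atf3 ran from 0.23 to 1.09 in lung at 4 hr, from 0.35 to 1.01 at 28 d, from 0.26 to 1.19 between air lungs and from 0.14 to 0.90 between air bloods. Atf3 and Fosb in blood lay near background, which limits their differences there, and Ier2 and Nr4a1 could not be compared.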
